A study of Mus musculus with 7 samples.

Results

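The DNA break repair and checkpoint genes examined here are 48 mouse genes, taken by symbol, of homologous recombination, the Fanconi anaemia pathway, end joining and the damage checkpoint. All 48 matched a gene among the 56953 in the counts, and all 48 were among the 13990 genes that passed the filter on low counts. Their RNA was measured in 7 libraries of live CD45- CD31- cells sorted from B16 tumours 5 days after treatment. B16 is a mouse melanoma line grown as tumours in mice, CD45 is the common leukocyte surface protein, and CD31 is an endothelial surface protein. The 3 AAV-iIL12 libraries came from tumours given radiotherapy (8 Gy) plus AAV-iIL12. The 4 AAV-iLuc libraries came from tumours irradiated alike and given AAV-iLuc as control. Both vectors are adeno-associated viruses (AAV), used to deliver genes, and the name of the first refers to interleukin 12, which induces interferon gamma. Every library was irradiated, so the comparison is between vectors within irradiated tumours and holds no unirradiated tumour. The series' design text counts the libraries as mice. Mouse strain, age and route of vector delivery were not given in the sources used here, and neither was the meaning of the letter i in the vector names or of a WT tag in the AAV-iIL12 titles.

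Cells mend a DNA double-strand break by a few routes. In homologous recombination the broken ends are cut back to single strands and copied from the sister chromatid, which restricts this route largely to S and G2 phase. In classical end joining the ends are held by Ku and ligated directly, in any phase. The Fanconi anaemia proteins unhook crosslinks between strands and feed them into recombination, and the checkpoint kinases Atm and Atr sense breaks and stalled forks and hold the cell cycle through Chek2 and Chek1. Ionising radiation makes double-strand breaks directly. Many recombination and Fanconi genes are transcribed mainly in dividing cells, under E2F factors and the CCAAT-binding factor NF-Y.

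Most of these genes had less RNA in AAV-iIL12 tumours. Of the 48 members, 30 fell, 3 rose and 15 did not pass (quasi-likelihood test of edgeR, with p adjusted over all tested genes by the Benjamini-Hochberg method and a threshold of 0.05). The falls made up 62.5% of the members, beside 23.7% of all tested genes, and the rises 6.25% of the members, beside 23.5% of all tested genes. Falls of at least 2-fold took in 13 members, or 27.1%, beside 4.67% of all tested genes, and no member rose that far. The 3 AAV-iIL12 libraries all lay below the 4 AAV-iLuc libraries for 33 members, or 68.8%, beside 26.7% of all tested genes. They all lay above for 4 members, or 8.33%, beside 25.9% of all tested genes, and the groups overlapped for 11 members. The median log2 fold change of the members, AAV-iIL12 over AAV-iLuc, was -0.43, against -0.01 for all tested genes.

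The members that fell most were the resection nuclease Exo1, the recombination translocase Rad54b, the polymerase Polq, the Fanconi genes Fancd2 and Fanca, and the kinase Chek1, at log2 fold changes between -2.14 and -1.72. Those that rose were the kinase gene Atm, the tumour suppressor gene Brca1 and, by a small margin, the break-site scaffold gene Trp53bp1. Of the 15 members that did not pass, 12 had a log2 fold change below 0 and 5 had an unadjusted p under 0.05. The cells were sequenced in bulk, so fewer cells of one kind and less RNA per cell cannot be told apart. With library size as the only scaling, 36 members fell and 2 rose, and 36.0% of the calls over all tested genes were higher in AAV-iIL12, against 49.8% with TMM scaling. Upper quartile scaling gave 35 falls and 2 rises among the members, and 38.5% of all calls higher. Of the 13990 tested genes, 4460 fell and 2506 rose with library size only, and 4225 fell and 2650 rose with upper quartile scaling. With TMM scaling, 3316 fell and 3292 rose.

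**Figure D1:**
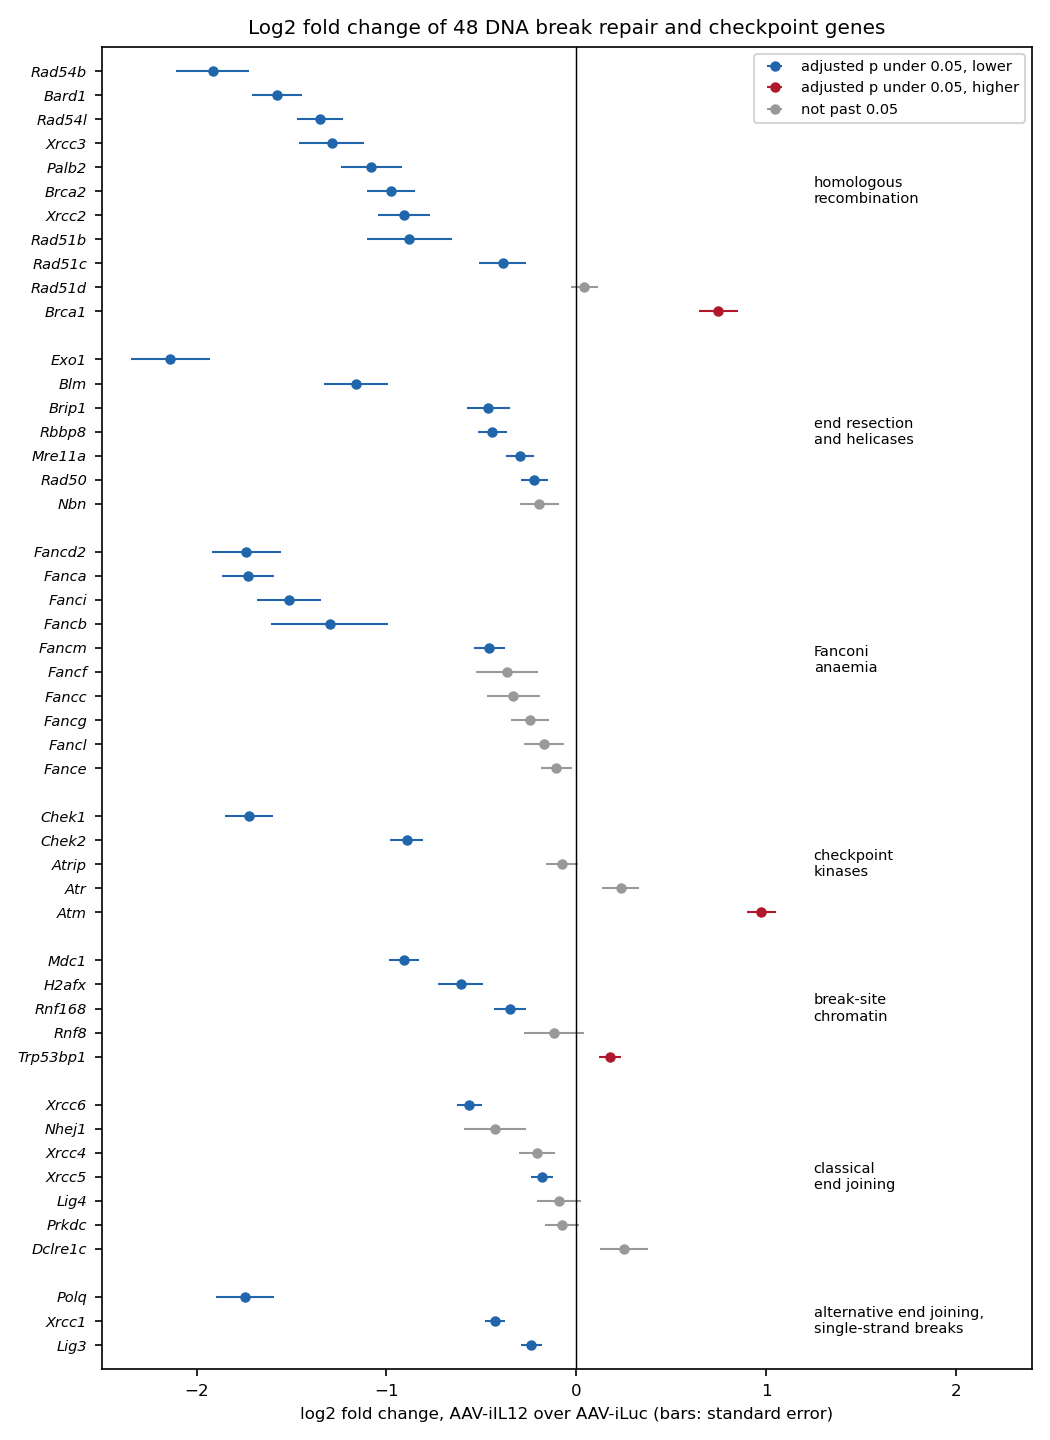
Log2 fold change of each of the 48 genes, AAV-iIL12 over AAV-iLuc (3 against 4 libraries), on the horizontal axis, with genes grouped by role down the page. Bars are standard errors and colours give the call at an adjusted p of 0.05: 30 genes fell, 3 rose (Atm, Brca1, Trp53bp1) and 15 did not pass.

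Several measures of the libraries moved with this comparison. The summed level of 26 G1/S genes was 685, 1009 and 979 CPM, counts scaled to library size, in AAV-iIL12 replicates 1, 2 and 3, against 2453, 2246, 2862 and 2619 CPM in AAV-iLuc replicates 1 to 4. That of 24 G2/M genes was 423, 731 and 703 CPM in AAV-iIL12, against 2352, 1686, 2243 and 2565 CPM in AAV-iLuc. None of these genes is a member, and 25 of the 26 and 24 of the 24 fell, with medians of -1.49 and -1.91. AAV-iIL12 replicate 1 was the lowest of its group in both sums and in 23 of the 30 members that fell. AAV-iLuc replicate 2 was the lowest of its group in both sums and in 22 of the 30. The 23 and 22 were counted only among members that fell, so they do not set these members apart from other genes. All 8 interferon-inducible GTPase genes rose, and their summed level was 9875, 8631 and 8842 CPM in AAV-iIL12, against 864, 199.9, 87.6 and 55.7 CPM in AAV-iLuc, where replicate 1 was the highest. The part of the cell cycle genes, of the interferon response and of AAV-iLuc replicate 1 in the changes of the repair genes was not tested. Without AAV-iLuc replicate 1, 28 members fell and 3 rose, and without AAV-iIL12 replicate 1, 28 fell and 4 rose.

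The marker genes did not go against the labelled cell type. The 7 melanocyte genes, led by Pmel, Dct and Tyrp1, summed to between 27850 and 28740 CPM in AAV-iIL12 and between 22840 and 25990 CPM in AAV-iLuc, and 3 of the 7 rose. The 16 leukocyte genes, with Lyz2 the most abundant, summed to between 6.15 and 9.93 CPM in AAV-iIL12. In AAV-iLuc they summed to 14.7 CPM in replicate 1, the highest value, and to 1.92, 1.49 and 3.25 CPM in replicates 2 to 4, below every AAV-iIL12 library. Ptprc, which encodes CD45, stood at 2.25, 2.44 and 1.04 CPM in AAV-iIL12, against 2.44, 0.165, 0.0596 and 0.412 CPM in AAV-iLuc. The 7 endothelial genes summed to between 15.2 and 26.7 CPM in AAV-iIL12 and between 19.4 and 24.9 CPM in AAV-iLuc, nearly all of it Vwf, with Cdh5, Cldn5 and Emcn at 0 in every library and Pecam1, which encodes CD31, no higher than 0.364 CPM. The 7 fibroblast genes, led by Col1a1 and Col3a1, summed to between 43.6 and 117 CPM in AAV-iIL12 and between 63.4 and 230.1 CPM in AAV-iLuc. None of the 5 leukocyte genes, 1 endothelial gene and 7 fibroblast genes that could be tested passed.

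Stretches upstream of some members are shown here to give the letters that E2F factors and NF-Y are known to bind, in members that fell and in members that rose. Whether these factors have a part in the changes was not tested. Promoter windows from RefSeq (GRCm38.p6), running from 250 bases before to 50 bases after each transcription start, matched 38 of the 48 members by symbol, 4 of them with more than 1 window. The members with no window are Rad51d, Xrcc2, Rad54b, Rad50, Nbn, Rbbp8, Exo1, Fancd2, H2afx and Prkdc. The E2F letters searched were TTTCCCGC, TTTGGCGC, TTTCGCGC and TTTGCCGC, on both strands. They stood in 6 of the 23 members with a window that fell (26.1%), namely Bard1, Brca2, Rad51c, Chek2, Mdc1 and Xrcc6, in 0 of the 3 that rose, in 1 of the 12 that did not pass (Fancg), and in 2.6% of the 27025 genes in the table. Those 27025 genes were not limited to the 13990 tested here, so no motif share over them is a share of tested genes. Positions are counted from the start, with the first base upstream at -1. The stretches below lie wholly upstream, each 100 bases long and read 5′ to 3′ on the gene's strand, with the E2F letters in capitals on whichever strand they matched.
Bard1, chr1:71103123-71103222, minus strand, letters from position -209: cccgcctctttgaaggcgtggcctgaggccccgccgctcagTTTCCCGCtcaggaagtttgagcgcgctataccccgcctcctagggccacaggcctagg
Brca2, chr5:150522406-150522505, plus strand, letters from position -168: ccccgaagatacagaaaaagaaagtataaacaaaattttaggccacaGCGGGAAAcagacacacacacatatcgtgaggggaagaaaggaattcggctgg
Chek2, chr5:110839783-110839882, plus strand, letters from position -152: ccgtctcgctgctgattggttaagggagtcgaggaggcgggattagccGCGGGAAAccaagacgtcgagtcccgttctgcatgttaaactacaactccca
Mdc1, chr17:35841398-35841497, plus strand, letters from position -16: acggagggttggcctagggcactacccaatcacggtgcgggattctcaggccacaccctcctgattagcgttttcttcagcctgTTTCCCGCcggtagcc
Xrcc6, chr15:82016269-82016368, plus strand, letters from position -46: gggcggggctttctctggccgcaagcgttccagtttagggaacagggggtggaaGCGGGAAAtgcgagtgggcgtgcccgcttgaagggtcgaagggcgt

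The CCAAT letters, the core that NF-Y binds, were found on either strand in 15 of the 23 members with a window that fell (65.2%), in 2 of the 3 that rose (Brca1 and Atm), in 6 of the 12 that did not pass, and in 41.1% of the genes in the table. They are shown for Fanca and Rad54l, which fell, and for Brca1 and Atm, which rose, as examples picked by direction. Whether NF-Y has a part in either direction was not tested. Capitals mark CCAAT or its reverse complement ATTGG.
Fanca, chr8:123318577-123318676, minus strand, letters from positions -50 and -23: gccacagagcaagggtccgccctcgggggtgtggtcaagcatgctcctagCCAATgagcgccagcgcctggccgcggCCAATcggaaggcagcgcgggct
Rad54l, chr4:116123690-116123789, minus strand, letters from position -51: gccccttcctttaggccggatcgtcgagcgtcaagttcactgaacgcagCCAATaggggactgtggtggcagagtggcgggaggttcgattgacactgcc
Brca1, chr11:101551976-101552075, minus strand, letters from position -86: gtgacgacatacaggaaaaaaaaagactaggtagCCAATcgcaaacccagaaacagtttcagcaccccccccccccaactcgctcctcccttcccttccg
Atm, chr9:53536772-53536871, minus strand, letters from position -165: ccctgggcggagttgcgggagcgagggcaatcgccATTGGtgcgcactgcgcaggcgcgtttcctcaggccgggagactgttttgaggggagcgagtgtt

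The third gene that rose, Trp53bp1, carries neither of these sets of letters in its window. Its log2 fold change was 0.18, and its call did not hold in several settings. Trp53bp1 is the one riser with the core letters of the interferon-stimulated response element, GAAANNGAA, where N is any base. Whether these letters have a part in its change was not tested. Its stretch is shown with those letters in capitals, on the opposite strand.
Trp53bp1, chr2:121271458-121271557, minus strand, letters from position -109: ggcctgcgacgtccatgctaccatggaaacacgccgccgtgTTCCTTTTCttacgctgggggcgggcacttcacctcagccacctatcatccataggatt

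The same core stood in 5 of the 23 members with a window that fell (21.7%), namely Brca2, Brip1, Chek1, Xrcc5 and Xrcc1, in 2 of the 12 that did not pass, and in 9.76% of the genes in the table. The letters TTCNNNGAA of the interferon gamma activated site stood in 2 of the 23 that fell (8.7%), in 0 of the 3 that rose, in 2 of the 12 that did not pass, and in 9.55% of the genes in the table. TTTGAA, the cell cycle homology region of late cell cycle promoters, stood in 3 of the 23 that fell (13.0%), in 0 of the 3 that rose, in 1 of the 12 that did not pass, and in 20.2% of the genes in the table. In Fancg the E2F letters and the response element core overlap. These matches describe letters in a window of fixed length and are not mapped binding sites.

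**Figure D2:**
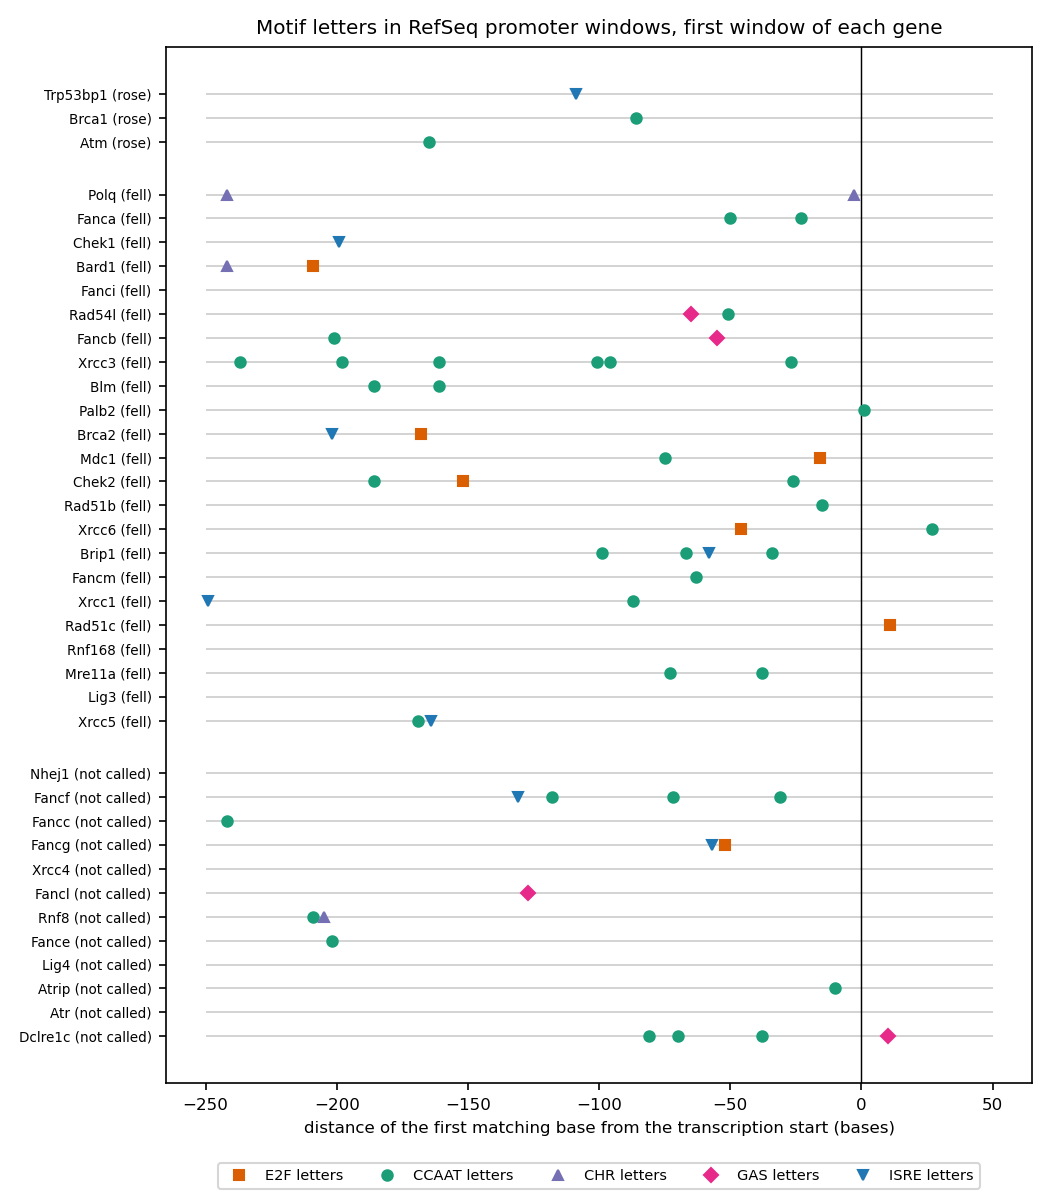
Distance of each matching set of letters from the transcription start, in bases, on the horizontal axis, for the first RefSeq window of each of the 38 members with one, down the page and with its call. E2F letters (one symbol type per motif) are in the windows of 6 of 23 members that fell and of none of the 3 that rose. They are also in 1 of 12 that did not pass and in 2.6% of all genes with a RefSeq window.

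Homologous recombination genes mostly fell, with Brca1 as the exception. Of 11 members 9 fell, 1 rose and 1 did not pass, beside 23.7% lower and 23.5% higher among all tested genes. The median log2 fold change was -0.98. Bard1 encodes the partner with which the Brca1 protein forms a ubiquitin ligase. It stood at 6.64, 8.31 and 8.57 CPM in AAV-iIL12 replicates 1 to 3, against 23.0, 19.3, 25.5 and 26.0 CPM in AAV-iLuc replicates 1 to 4. Every AAV-iIL12 library lay below every AAV-iLuc library, and the log2 fold change was -1.58 ± 0.13 (SE, adjusted p = 1.27e-05). Rad54l, a motor protein that acts on DNA during recombination, had 5.97, 7.44 and 7.42 CPM in AAV-iIL12, against 19.5, 15.5, 17.1 and 18.9 CPM in AAV-iLuc (log2 fold change -1.35 ± 0.12, adjusted p = 1.78e-05). Its relative Rad54b had 1.95, 3.42 and 3.30 CPM in AAV-iIL12, against 11.7, 8.99, 11.0 and 12.3 CPM in AAV-iLuc (log2 fold change -1.91 ± 0.19, adjusted p = 3.53e-05). Both groups stood apart for both genes, and AAV-iIL12 replicate 1 was the lowest library. Of the exon length of Rad54b, 35.8% is shared with Fsbp on the same strand, where fragments are counted for neither gene, so its level is that of the unshared exons.

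Brca2, a tumour suppressor gene whose protein acts on the resected single strands, stood at 13.5, 17.8 and 18.9 CPM in AAV-iIL12, against 35.9, 28.4, 35.1 and 32.4 CPM in AAV-iLuc. The groups did not overlap, and the log2 fold change was -0.98 ± 0.12 (adjusted p = 1.54e-04). Palb2, which bridges Brca1 and Brca2, fell by 1.08 on the log2 scale. Among the paralog genes of recombination, Xrcc3 fell by 1.29, Xrcc2 by 0.91, Rad51b by 0.88 and Rad51c by 0.39. Rad51c lost its call when replicate 2 or 3 of AAV-iIL12, or replicate 1 or 3 of AAV-iLuc, was left out (adjusted p = 0.0749, 0.112, 0.0524 and 0.0644). The remaining paralog, Rad51d, averaged 26.5 ± 1.42 CPM in AAV-iIL12, against 25.7 ± 1.43 CPM in AAV-iLuc (SD, n = 3 and 4), with a log2 fold change of 0.04 ± 0.07 that did not pass.

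Brca1 went the other way from its partners. It stood at 348, 443 and 412 CPM in AAV-iIL12 replicates 1 to 3, against 261, 256, 233 and 205 CPM in AAV-iLuc replicates 1 to 4. The lowest AAV-iIL12 library was above the highest AAV-iLuc library, and the log2 fold change was 0.75 ± 0.10 (adjusted p = 2.23e-04). Within AAV-iIL12, replicate 1 was the lowest of the 3 for Brca1 as it was for Brca2 and Bard1. The Brca1 gene lies on chromosome 11 at 101379590 to 101442781 (GRCm39, minus strand), and none of its exon length is shared with another annotated gene on either strand.

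Divided by transcript length, Brca1 RNA stood at 34.7, 35.3 and 31.9 times Bard1 RNA in the AAV-iIL12 libraries, as a ratio of TPM, the counts scaled to exon length and library size, against 7.53, 8.81, 6.05 and 5.22 times in the AAV-iLuc libraries. The mean ratio was 34.0 ± 1.84 in AAV-iIL12 and 6.90 ± 1.59 in AAV-iLuc (SD, n = 3 and 4). Brca1 and Bard1 proteins work as a pair, and the ratio is of their RNA. The 10 pairs of partner genes compared this way were chosen after their values were seen and are given as a description. Xrcc5 over Xrcc6 averaged 3.30 ± 0.167 in AAV-iIL12 and 2.53 ± 0.126 in AAV-iLuc, and Rad51d over Xrcc2 averaged 4.80 ± 0.743 in AAV-iIL12 and 2.46 ± 0.223 in AAV-iLuc. Rad51c over Xrcc3 averaged 0.894 ± 0.254 in AAV-iIL12 and 0.470 ± 0.0626 in AAV-iLuc. Fancd2 over Fanci averaged 1.01 ± 0.0157 in AAV-iIL12 and 1.18 ± 0.0416 in AAV-iLuc, and Lig3 over Xrcc1 averaged 1.08 ± 0.0316 in AAV-iIL12 and 0.945 ± 0.026 in AAV-iLuc. The libraries of the groups stood apart for these 6 ratios and overlapped for Brca2 over Palb2, Atr over Atrip, Lig4 over Xrcc4 and Mre11a over Rad50.

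**Figure D3:**
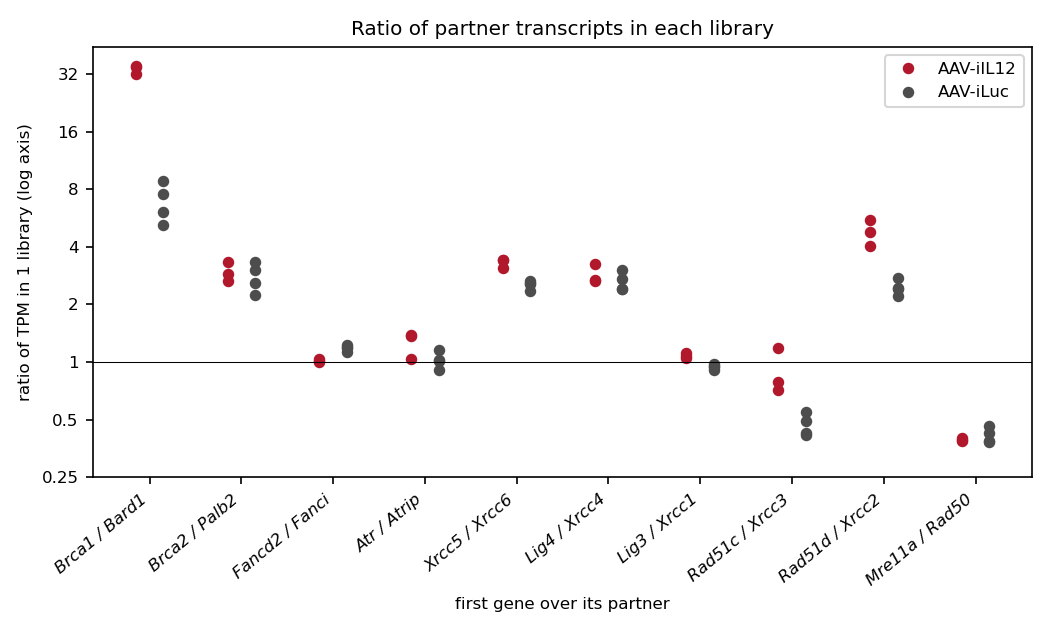
Ratio of TPM between partner genes in each library, on a log axis, for 10 pairs chosen after their values were seen, with AAV-iIL12 left of AAV-iLuc in each pair. Brca1 over Bard1 lies between 31.9 and 35.3 in AAV-iIL12 and between 5.22 and 8.81 in AAV-iLuc.

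End resection and helicase genes fell in 6 of 7 cases, beside 23.7% of all tested genes, with a median of -0.44. Exo1, the nuclease that extends resected ends, had the lowest log2 fold change of all 48 members. It stood at 3.29, 6.25 and 6.76 CPM in AAV-iIL12, against 22.5, 22.6, 29.6 and 21.9 CPM in AAV-iLuc. The groups did not overlap (log2 fold change -2.14 ± 0.21, adjusted p = 2.83e-05). Blm, the helicase mutated in Bloom syndrome, had 11.0, 20.2 and 15.8 CPM in AAV-iIL12, against 38.3, 30.5, 36.0 and 35.6 CPM in AAV-iLuc (log2 fold change -1.16 ± 0.17, adjusted p = 3.20e-04). Rbbp8, which encodes the resection starter CtIP, had 21.1, 20.3 and 22.0 CPM in AAV-iIL12, against 27.2, 27.9, 31.6 and 28.3 CPM in AAV-iLuc (log2 fold change -0.44 ± 0.08, adjusted p = 1.01e-03). For all 3 genes every AAV-iIL12 library was below every AAV-iLuc library, by a wide gap for Exo1 and Blm and a smaller one for Rbbp8.

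Brip1, a helicase that binds Brca1, fell by 0.46. Of the break-sensing complex of Mre11a, Rad50 and Nbn, Mre11a fell by 0.30 and Rad50 by 0.22, and Nbn had a log2 fold change of -0.20 that did not pass (adjusted p = 0.144) except with library size only (adjusted p = 0.0404). Rad50 lost its call when replicate 1 or 3 of AAV-iIL12, or replicate 1, 2 or 4 of AAV-iLuc, was left out (adjusted p between 0.05 and 0.104).

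Fanconi anaemia genes fell or did not pass. Of 10 members 5 fell and 5 did not pass, beside 23.7% of all tested genes that fell, with a median of -0.41. Fanca, a subunit of the core ubiquitin ligase complex, stood at 13.3, 18.6 and 15.7 CPM in AAV-iIL12, against 51.2, 42.9, 57.2 and 60.1 CPM in AAV-iLuc (log2 fold change -1.73 ± 0.14, adjusted p = 9.61e-06). Fancd2 and Fanci encode the pair of proteins that the core complex ubiquitinates at a crosslink. Fancd2 had 12.7, 22.5 and 23.2 CPM in AAV-iIL12, against 71.6, 54.6, 66.4 and 68.7 CPM in AAV-iLuc (log2 fold change -1.74 ± 0.18, adjusted p = 4.41e-05). Fanci had 9.26, 16.0 and 16.8 CPM in AAV-iIL12, against 42.4, 35.3, 40.8 and 42.1 CPM in AAV-iLuc (log2 fold change -1.51 ± 0.17, adjusted p = 6.72e-05). The groups stood well apart for all 3 genes, and AAV-iIL12 replicate 1 was the lowest library each time.

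Of the other core complex members, Fancb fell by 1.30, and Fancm, the translocase that brings the complex to DNA, fell by 0.46. Fancb was among the least abundant members, at 1.38 ± 0.553 CPM in AAV-iIL12, against 3.41 ± 0.941 CPM in AAV-iLuc (SD, n = 3 and 4). The core subunits Fancc, Fance, Fancf, Fancg and the ubiquitin ligase Fancl had log2 fold changes of -0.33, -0.10, -0.37, -0.24 and -0.17 that did not pass, and of these the groups stood apart for Fancg. With library size as the only scaling or upper quartile scaling, Fancc, Fancf and Fancg passed as falls, so that 8 of 10 fell (adjusted p between 0.0204 and 0.0461). These scalings also gave more falls over all 13990 tested genes, 4460 and 4225, against 3316 with TMM scaling. Without AAV-iLuc replicate 2, Fancc and Fancf passed as falls (adjusted p = 0.0154 and 0.0491).

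The checkpoint kinase genes, listed together with Atrip, moved in opposite directions. Of 5 members 2 fell, 1 rose and 2 did not pass, beside 23.7% lower and 23.5% higher among all tested genes. Atm, the kinase activated by double-strand breaks, stood at 178, 214 and 207 CPM in AAV-iIL12, against 112, 102, 94.2 and 98.0 CPM in AAV-iLuc. Every AAV-iIL12 library was far above every AAV-iLuc library, and the log2 fold change was 0.97 ± 0.08 (adjusted p = 9.12e-06). Chek2, which Atm phosphorylates, had 10.5, 10.8 and 12.3 CPM in AAV-iIL12, against 21.6, 20.0, 21.6 and 20.0 CPM in AAV-iLuc (log2 fold change -0.89 ± 0.09, adjusted p = 3.05e-05). The libraries within each group lay close together for Chek2, and the groups did not overlap.

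Atr, the kinase of stalled forks and single-stranded DNA, stood at 57.2, 76.8 and 75.3 CPM in AAV-iIL12, against 61.3, 59.6, 54.4 and 62.0 CPM in AAV-iLuc. AAV-iIL12 replicates 2 and 3 were above all AAV-iLuc libraries and replicate 1 lay among them, and the log2 fold change of 0.23 ± 0.10 did not pass (adjusted p = 0.0728). Without AAV-iIL12 replicate 1 it passed as a rise of 0.36 (adjusted p = 0.0016), and also with no filter on low counts, at 0.24 (adjusted p = 0.0222). Its partner Atrip, which brings Atr to single-stranded DNA, had a log2 fold change of -0.08 that did not pass. Chek1, the kinase that Atr activates, had 6.76, 7.39 and 7.86 CPM in AAV-iIL12, against 20.9, 22.2, 28.0 and 26.2 CPM in AAV-iLuc (log2 fold change -1.72 ± 0.13, adjusted p = 5.87e-06). The highest AAV-iIL12 library for Chek1 was well below the lowest AAV-iLuc library.

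**Figure D4:**
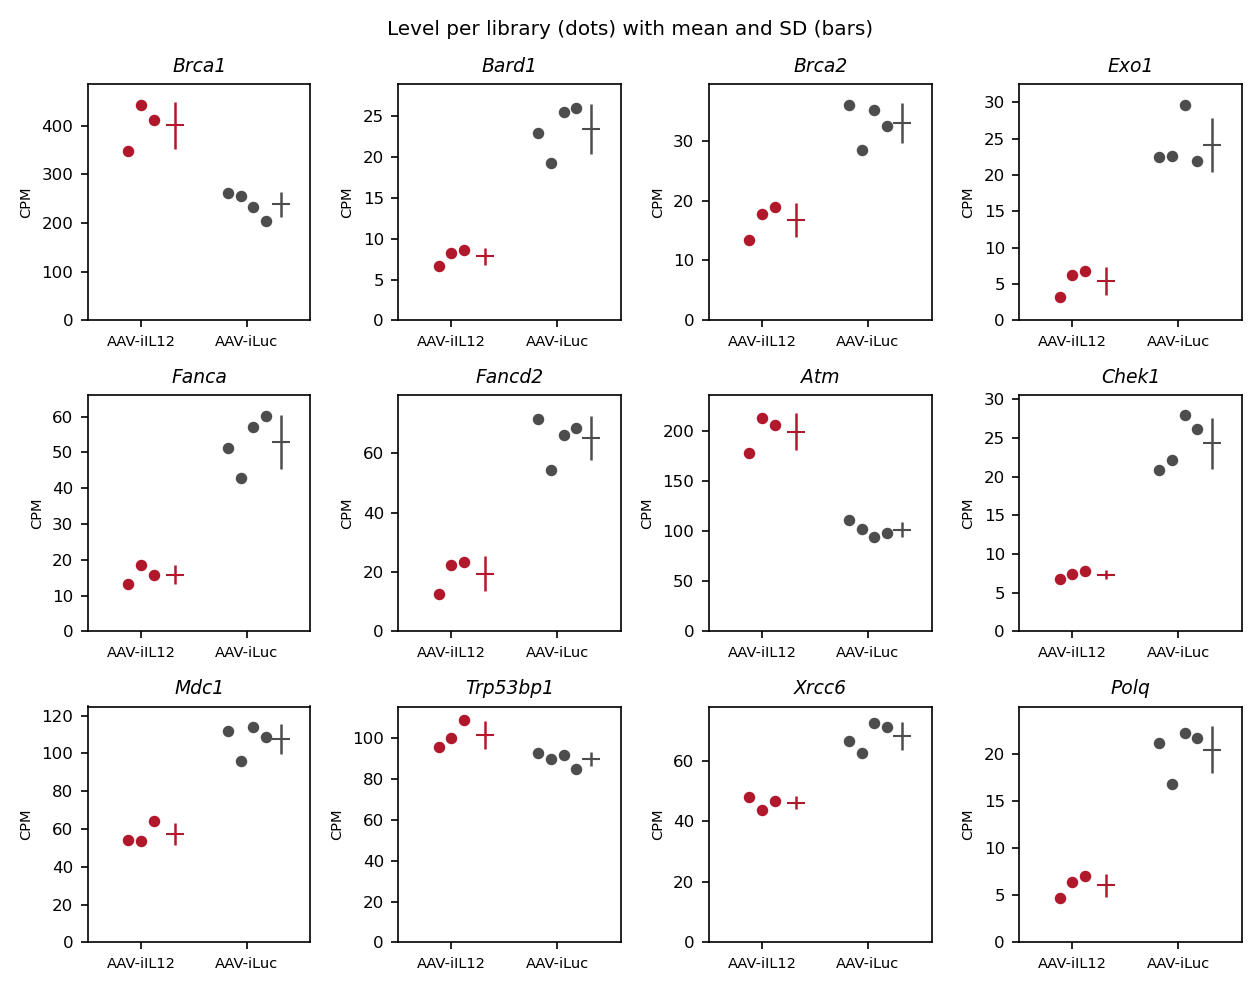
CPM of selected members in each library (dots), with the mean and SD of each group (bars), AAV-iIL12 left of AAV-iLuc, on linear axes from 0. Atm and Brca1 lie higher in all 3 AAV-iIL12 libraries, while Bard1, Chek1 and Exo1 lie lower in all 3.

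Among the genes that mark and decorate chromatin at breaks, 3 of 5 fell, 1 rose and 1 did not pass, with a median of -0.35. Of all tested genes 23.7% fell and 23.5% rose. Mdc1, the scaffold that reads phosphorylated H2AX, stood at 54.2, 53.9 and 64.2 CPM in AAV-iIL12, against 112, 96.2, 114 and 109 CPM in AAV-iLuc (log2 fold change -0.91 ± 0.08, adjusted p = 1.63e-05). H2afx, the histone variant gene itself, had 28.3, 22.6 and 24.0 CPM in AAV-iIL12, against 40.1, 31.8, 36.2 and 44.1 CPM in AAV-iLuc (log2 fold change -0.61 ± 0.12, adjusted p = 2.09e-03). Rnf168, the ligase that ubiquitinates chromatin around the break, had 29.8, 37.3 and 34.3 CPM in AAV-iIL12, against 41.6, 41.8, 46.3 and 42.8 CPM in AAV-iLuc (log2 fold change -0.35 ± 0.08, adjusted p = 5.88e-03). All 3 genes were lower in every AAV-iIL12 library.

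Trp53bp1, the scaffold that restrains resection and favours end joining, stood at 95.5, 100.1 and 109 CPM in AAV-iIL12, against 92.8, 90.0, 91.6 and 84.7 CPM in AAV-iLuc. The groups lay next to each other without overlapping, and the log2 fold change was 0.18 ± 0.06 (adjusted p = 0.0283). This call ended with library size only (0.09, adjusted p = 0.234), with upper quartile scaling (0.10, adjusted p = 0.161), and when replicate 2 or 3 of AAV-iIL12, or replicate 2 or 4 of AAV-iLuc, was left out (adjusted p between 0.0515 and 0.127). Rnf8, the ligase that acts before Rnf168, averaged 6.74 ± 1.54 CPM in AAV-iIL12, against 7.29 ± 0.636 CPM in AAV-iLuc and did not pass.

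Of the 7 classical end joining genes 2 fell and 5 did not pass, near the 23.7% of all tested genes that fell, and the median log2 fold change was -0.18. Under upper quartile scaling, and under scaling by library size alone, 4 of the 7 fell, as Xrcc4 (adjusted p = 0.0344 and 0.0276) and Nhej1 (adjusted p = 0.0271 and 0.0219) then passed. Falls were also more frequent over all 13990 tested genes under these scalings, at 4225 and 4460, against 3316 with TMM scaling. The Ku subunit genes both fell, by unlike amounts. Xrcc6, the smaller subunit, stood at 47.8, 43.7 and 46.8 CPM in AAV-iIL12, against 66.6, 62.5, 72.4 and 71.1 CPM in AAV-iLuc (log2 fold change -0.56 ± 0.07, adjusted p = 9.04e-05). Xrcc5, the larger subunit, had 84.7, 84.5 and 90.5 CPM in AAV-iIL12, against 96.7, 94.0, 107 and 95.3 CPM in AAV-iLuc (log2 fold change -0.18 ± 0.06, adjusted p = 0.0256). The groups were clear of each other for Xrcc6 and only just so for Xrcc5, which did not pass once replicate 1 or 2 of AAV-iIL12, or replicate 3 of AAV-iLuc, was left out (adjusted p = 0.0773, 0.096 and 0.0556), or with no filter on low counts (adjusted p = 0.053).

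Prkdc, the DNA-dependent kinase that Ku recruits, had 48.3, 62.4 and 58.8 CPM in AAV-iIL12, against 63.3, 58.6, 61.5 and 54.6 CPM in AAV-iLuc. The groups overlapped, and the log2 fold change of -0.07 ± 0.09 did not pass. Nhej1, a ligation cofactor, had 3.17, 2.99 and 2.97 CPM in AAV-iIL12, against 4.58, 4.44, 3.93 and 3.40 CPM in AAV-iLuc. Its libraries did not overlap between groups, and its log2 fold change of -0.43 ± 0.16 did not pass (adjusted p = 0.0525), though it did without AAV-iLuc replicate 4 (adjusted p = 0.0289). The ligase Lig4 and its scaffold Xrcc4 had log2 fold changes of -0.09 and -0.21, and the nuclease Dclre1c (Artemis) had 0.25, and none of these passed with TMM scaling.

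All 3 genes of alternative end joining and single-strand break repair fell, beside 23.7% of all tested genes. Polq, the polymerase of microhomology-mediated joining, stood at 4.69, 6.41 and 7.09 CPM in AAV-iIL12, against 21.2, 16.8, 22.2 and 21.6 CPM in AAV-iLuc (log2 fold change -1.75 ± 0.15, adjusted p = 1.46e-05). Xrcc1, the scaffold of single-strand break repair, had 59.5, 62.8 and 64.2 CPM in AAV-iIL12, against 82.6, 79.1, 86.4 and 86.5 CPM in AAV-iLuc (log2 fold change -0.43 ± 0.05, adjusted p = 1.34e-04). Lig3, the ligase bound to Xrcc1, had 78.1, 87.3 and 86.1 CPM in AAV-iIL12, against 97.5, 96.0, 103 and 98.3 CPM in AAV-iLuc (log2 fold change -0.24 ± 0.05, adjusted p = 5.14e-03). No AAV-iIL12 library reached the AAV-iLuc range for any of them, and the gap was widest for Polq.

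**Figure D5:**
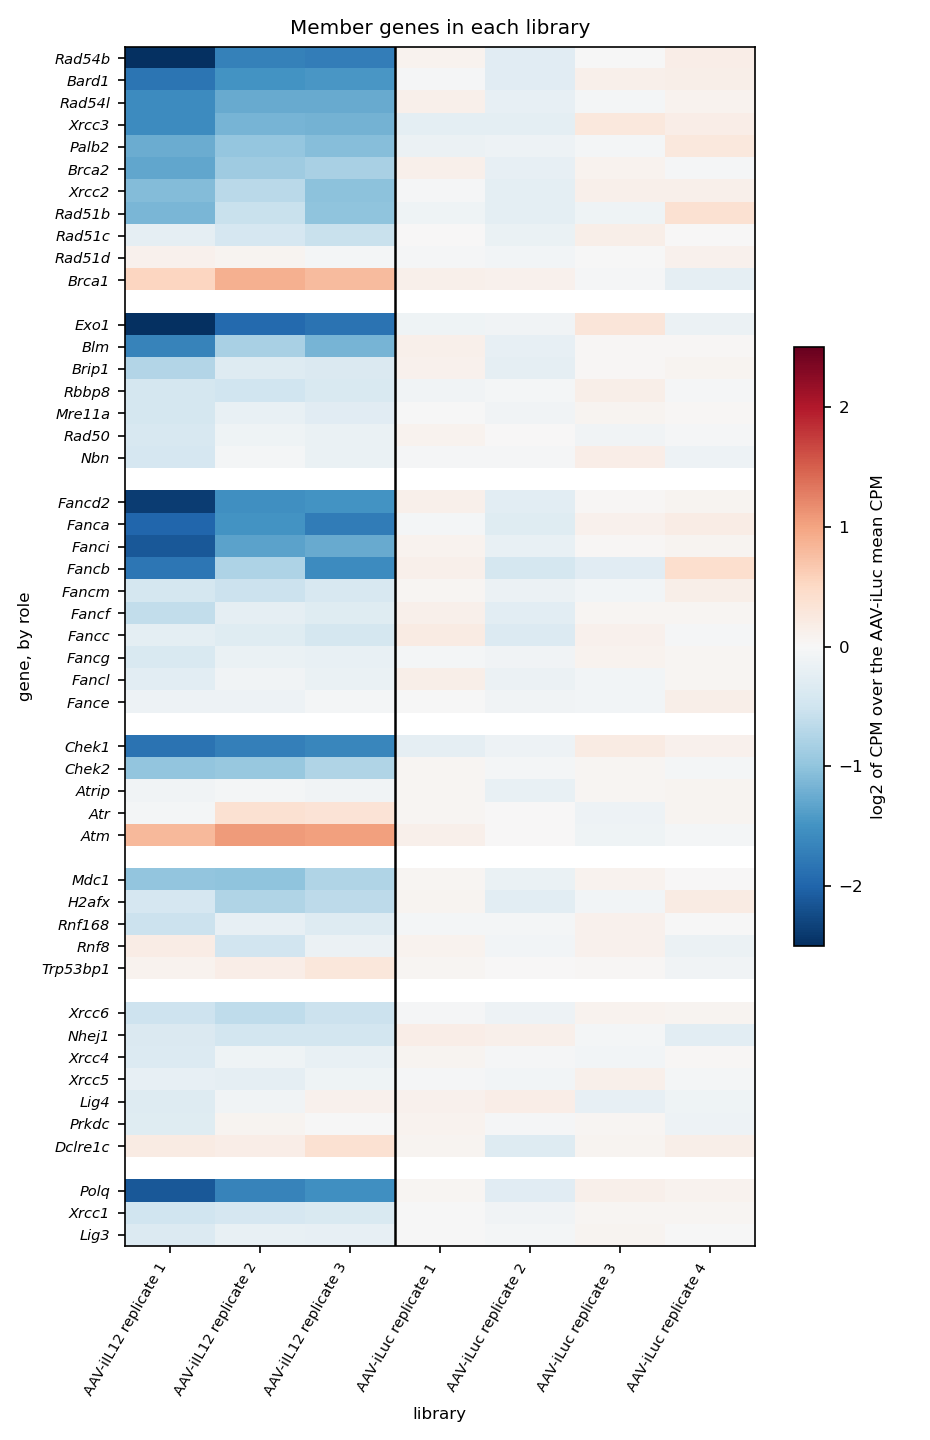
Log2 of the CPM of each of the 48 genes in each library over the mean CPM of the AAV-iLuc libraries (colour), with libraries across, AAV-iIL12 left, and genes by role down the page. Lower values fill the 3 AAV-iIL12 columns for 9 of 11 homologous recombination genes, while the rows of Atm and Brca1 go the other way. Of all tested genes, 26.7% had the AAV-iIL12 libraries wholly below the AAV-iLuc libraries and 25.9% wholly above.

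Levels between genes were compared per length, as TPM. In AAV-iIL12 tumours the most abundant members were Brca1 at 170.5 ± 23.2 TPM, Xrcc5 at 123 ± 6.35 TPM and Atm at 70.0 ± 7.70 TPM (SD, n = 3). In AAV-iLuc tumours they were Xrcc5 at 151 ± 8.52 TPM, Brca1 at 110.0 ± 11.4 TPM and H2afx at 108 ± 16.1 TPM (SD, n = 4), with Brca1 and H2afx within 1 SD of each other. Atm ranked 3 of 48 in AAV-iIL12 and 10 in AAV-iLuc, and Fancd2 ranked 24 in AAV-iIL12 and 12 in AAV-iLuc. Exo1 ranked 42 in AAV-iIL12 and 30 in AAV-iLuc. The member with the lowest TPM was Palb2 in AAV-iIL12, at 1.50 ± 0.164 TPM, and Rnf8 in AAV-iLuc, at 2.45 ± 0.211 TPM. TPM divides by the length of all annotated exons, 11703 bases for Rnf8, so a long annotated model lowers the TPM of its gene. In CPM the lowest member in AAV-iLuc was Fancb, at 3.41, against 7.29 for Rnf8.

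No exon of 44 of the 48 members is shared with another gene on the same strand. Besides Rad54b, the exceptions are Atrip, with 16.0% of its exon length shared with Trex1, Rnf8, with 13.2% shared with Gm28043, and Atr, with 0.753% shared with Gm24004. All of the exons of Trex1, an exonuclease gene that degrades cytosolic DNA, lie within Atrip on that strand, and Trex1 is listed with 0 counts in all 7 libraries, so it could not be measured with this counting. Exons of 22 members overlap a gene on the opposite strand, which the strand-specific counting keeps apart.

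Further genes of these pathways also fell more often than they rose. Of 83 further genes listed, 80 were tested, and of these 46 fell, 10 rose and 24 did not pass, with a median of -0.33, beside 23.7% lower and 23.5% higher among all tested genes. The falls were most frequent among recombination and resection genes (16 of 22) and checkpoint genes (12 of 17), and fewer among Fanconi genes (5 of 10), break-site chromatin genes (7 of 17) and end joining and strand break genes (6 of 14). The 6 falls with the smallest p included the recombination genes Fignl1 (log2 fold change -1.84) and Rad51ap1 (-2.14) and the resection nuclease Dna2 (-1.53). The others were the replicative ligase Lig1 (-1.39), the Atr activator Topbp1 (-1.06) and the fork protection gene Timeless (-1.62). All 6 were lower in every AAV-iIL12 library, beside 26.7% of all tested genes. They were picked by p from the same libraries, so their separation is a description only.

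The 10 that rose were led by Parp3, a poly(ADP-ribose) polymerase family gene that acts in end joining, and Wrn, the helicase gene of Werner syndrome. Parp3 averaged 172 ± 13.9 CPM in AAV-iIL12, against 54.9 ± 6.76 CPM in AAV-iLuc (log2 fold change 1.65 ± 0.09, adjusted p = 1.49e-06). Wrn averaged 53.8 ± 1.46 CPM in AAV-iIL12, against 23.0 ± 1.61 CPM in AAV-iLuc (log2 fold change 1.22 ± 0.07, adjusted p = 1.67e-06). L3mbtl1 had the highest log2 fold change, 2.81 ± 0.61, at 4.51, 0.760 and 2.09 CPM in AAV-iIL12, against 0.520, 0.165, 0.477 and 0.206 CPM in AAV-iLuc. AAV-iIL12 replicate 1 was the highest library, the 4 AAV-iLuc libraries held 25 counts of it in all, and without that replicate the log2 fold change was 2.05 (adjusted p = 0.0134). Others rose by 0.60 (Rad9b), 0.56 (Paxx, an end joining factor), 0.36 (Rad52, a strand annealing protein), 0.32 (Uimc1, which brings Brca1 to ubiquitin chains), 0.21 (Aptx) and 0.19 (Wdr48) on the log2 scale. The libraries of the groups stood apart for 9 of the 10, beside 25.9% of all tested genes with AAV-iIL12 wholly above. These 10 were picked as rises from the same libraries, so the count is a description only. The number that rose was 6 with library size only, where Wdr48, Uimc1 and Aptx were among those that did not pass. Aptx lost its call without each library but AAV-iIL12 replicate 2 (adjusted p between 0.0596 and 0.155), and also with DESeq2, limma-voom, upper quartile scaling, no filter on low counts or the replicate block (adjusted p between 0.0518 and 0.164). Uimc1 lost its call without AAV-iIL12 replicate 1 (adjusted p = 0.0505), and Wdr48 with upper quartile scaling (adjusted p = 0.0615).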

How the data were processed

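The 3 AAV-iIL12 and 4 AAV-iLuc libraries were grouped by the treatment in the labels. The authors deposited unnormalized fragment counts for each gene, 16356653 to 19080587 counts per library. Per the file headers, the authors counted exons by gene with featureCounts 1.6.0 on the GENCODE vM32 annotation, reverse-stranded and paired, with no option for reads that overlap several genes or map to several places. STAR 2.7.9a, FastQC 0.11.8, the build GRCm39, limma and edgeR are named in the submitters' processing notes.

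Symbols came from the GENCODE vM21 table by gene identifier, for 52029 of 56953 identifiers holding 99.4% of counts. AAV-iIL12 was set against AAV-iLuc with edgeR 4.0.16 under R 4.3.3 (quasi-likelihood test, TMM scaling, the filterByExpr filter, Benjamini-Hochberg adjustment over the 13990 genes left). CPM are TMM-scaled, TPM used the exon length in the files, and SE were derived from the F statistic. The test was checked on simulated counts. Alternatives were median-of-ratios factors, library size only, upper quartile scaling, no filter, 1 CPM in 3 libraries, DESeq2 1.42.0, limma-voom (limma 3.58.1), an adjusted p of 0.01, a replicate block and each library left out.

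The 48 members and all lists, namely G1/S, G2/M, interferon GTPase, marker and further pathway genes, were chosen with earlier results of these data known. Named with values in every library were the 3 members of each role with the smallest p, any that went against the calls of its role, and Brca1, Bard1, Brca2, Atm, Atr, Chek1, Fanca, Prkdc and Polq. Of the further genes, the 6 falls with the smallest p and every rise were named, except 1 rise that is not reported here. Of the 83 listed, Hrob and Shld3 were not matched, and 1 did not pass the filter. Coordinates of genes are on GRCm39 as in the files, and those of promoters on GRCm38.p6 as in the RefSeq table. Within groups, libraries differed beyond sampling noise, so none was counted as a duplicate, and the labels give no sequencing batch.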

Additional observations from a re-analysis of the deposited data

Results flagged for a closer look

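In 48 groups of 4 libraries examined, the AAV-iLuc values of each member, a gap test set 1 library apart in 2, and chance gives about 1 in 20 groups. Exo1 stood at 29.6 CPM in AAV-iLuc replicate 3, against 21.9 to 22.6 CPM in the other AAV-iLuc libraries. Atrip stood at 15.6 CPM in AAV-iLuc replicate 2, against 18.1 to 18.6 CPM in the other AAV-iLuc libraries. Without AAV-iLuc replicate 3 the call of Exo1 held, and without AAV-iLuc replicate 2 Atrip still did not pass.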

How the results depend on the processing

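No fold change of a member or further pathway gene that passed changed sign under the 16 settings tried beside the one reported. Between 27 and 36 members fell and between 2 and 4 rose. Over all genes tested in each setting, between 2296 and 4460 fell and between 2391 and 3450 rose. The calls of 27 of the 30 falls and of Atm and Brca1 held in every setting, and those of Rad50, Rad51c, Xrcc5 and Trp53bp1 did not. At an adjusted p under 0.01, 27 members fell and 2 rose. With each library left out in turn, between 28 and 31 members fell and between 2 and 4 rose. Of the further pathway genes, the number that rose was 6 with library size only and 6 at an adjusted p under 0.01, against 10 as reported. Deviations from the group means correlated between same-numbered libraries at 0.09, 0.03 and -0.05, and between the others from -0.11 to 0.07. Such correlations over all tested genes cannot exclude a pairing by replicate number that acts on few genes. With the replicate number as a block, 28 members fell and 2 rose, with adjusted p of 0.0742 for Rad50, 0.0707 for Rad51c and 0.101 for Trp53bp1. With the block, 2828 of all tested genes fell and 2832 rose, and 44 of the further pathway genes fell and 9 rose. The small groups and the low counts of Fancb, Rad51b and Palb2 limit the precision of their fold changes.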
